A study of Mus musculus with 8 samples.

Results

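Glycolytic enzymes were followed as a group of 10 listed genes in mouse lens, namely Hk1, Gpi1, Aldoa, Tpi1, Gapdh, Pgk1, Pgam1, Pgam2, Eno1 and Ldha. The members were every probe set of the MG-U74Av2 array (a chip on which each transcript is read by a set of short oligonucleotides) whose annotation names one of these genes, and each probe set was kept separate. This gave 16 of the 12488 probe sets, for 8 of the 10 genes. The annotation used lists no probe set for Gpi1 or Eno1, which were not analysed here. Of the 16, 8 are annotated to a single gene and 2 to Gapdh together with Gapdh pseudogenes. The other 6 are array controls for Gapdh, 3 of them on the transcript strand and 3 on the opposite strand. The 10 that are not controls all passed the filter on low signals and were tested.

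Lenses came from 10-day-old mice of both sexes, of the 129SvJae or the C57BL/6J strain, that were wild type (WT) or lacked the gap junction gene α3Cx46 (KO; gene symbol Gja3). The 4 groups were 129SvJae WT, 129SvJae KO, C57BL/6J WT and C57BL/6J KO, each with 2 arrays, and no treatment was given. Each RNA came from a pool of 20 to 30 lenses, and the labels do not say whether replicate pools came from separate animals, and the p-values therefore measure only how much these arrays vary, which may be technical. A pool is a whole organ, and fewer cells of a type cannot be told apart from less RNA per cell. The strain comparison asks which transcripts differ between lenses on backgrounds where loss of α3Cx46 leads to cataracts of different severity, and the genotype comparison asks whether loss of the connexin changes transcripts before opacities are seen.

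The signals were brought to a common scale on each array, with a trimmed mean of 250 in arbitrary units, and 7637 to 8602 probe sets per array lay above 50. All 8 probe sets of lens fiber markers exceeded 50 on every array. Their KO over WT log2 ratio, averaged over strains, was negative for 7 of the 8. Its median was -0.35, against -0.02 over all probe sets tested, and only Gja3 was called. The Gja3 probe set was lower in KO lenses (limma log2 ratio -2.23 ± 0.29 SE, n = 4 arrays per genotype, adjusted p = 0.0160), which checked the genotype labels. The 129SvJae WT replicate 1 array stood apart on the controls for RNA ends and had the lowest signal of the 8 arrays on 5 of the 10 tested glycolysis probe sets. Values without it are given below for the results it touches.

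Glycolysis splits glucose into pyruvate in the cytosol and yields ATP without oxygen. Mature lens fibers have lost their mitochondria and the tissue has no blood vessels, so the lens is known to depend on glycolysis, with lactate as a main end product. Hexokinase, phosphofructokinase and pyruvate kinase catalyse the steps that are in effect irreversible. Phosphoglycerate kinase (Pgk1) and pyruvate kinase are the steps that make ATP.

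Transcripts of 2 neighbouring steps, Pgk1 and the muscle-type phosphoglycerate mutase Pgam2, were lower in C57BL/6J than in 129SvJae lenses, and no member was called for loss of α3Cx46. Pgk1 and Pgam2 were each read by a single probe set. Whether its oligonucleotides match the sequences of both strains equally was not tested. Because these transcripts carried the strain difference, the 250 bases before the annotated start of each are shown, from RefSeq on the GRCm38.p6 assembly of the C57BL/6J genome, 5′ to 3′ on the strand of the gene. Pgk1 (gene ID 18655) lies at chrX:106187100-106203699 on the plus strand, with its window at chrX:106186850-106187099. Pgam2 (gene ID 56012) lies at chr11:5801637-5803796 on the minus strand, with its window at chr11:5803797-5804046. Capitals mark ACGTG, the core letters of sites bound by hypoxia-inducible factors, and GGGCGG, the GC box bound by Sp1, on either strand.
Pgk1: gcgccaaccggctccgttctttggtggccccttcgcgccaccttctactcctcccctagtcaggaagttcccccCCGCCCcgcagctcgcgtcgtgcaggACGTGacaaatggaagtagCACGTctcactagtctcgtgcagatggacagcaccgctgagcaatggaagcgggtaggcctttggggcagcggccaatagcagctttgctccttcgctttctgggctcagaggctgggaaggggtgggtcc
Pgam2: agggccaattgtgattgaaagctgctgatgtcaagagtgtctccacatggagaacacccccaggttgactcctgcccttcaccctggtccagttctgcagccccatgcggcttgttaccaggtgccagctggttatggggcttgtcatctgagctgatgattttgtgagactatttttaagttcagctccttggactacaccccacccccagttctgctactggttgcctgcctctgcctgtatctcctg

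The Pgk1 window held ACGTG on the gene's strand at 150 to 146 bases before the start and on the opposite strand at 131 to 127, and a GC box at 176 to 171. The Pgam2 window held neither. CACGTG, the E-box, which contains ACGTG and so overlaps it, was in neither window. Among all 32851 windows of this length, 16.6% held ACGTG, 6.02% held CACGTG and 32.7% held GGGCGG on either strand. The 10 listed genes have 16 of these windows, and some windows of Aldoa and of Eno1 overlap. ACGTG was in 5 of the 16 windows, from 4 genes, and GGGCGG in 8, from 6 genes. CACGTG was in 1 window, that of Ldha. The GC content was 62.8% for Pgk1 and 53.2% for Pgam2, against a median of 52.4% over all windows. Presence of these letters describes the sequence and gives no evidence of binding in the lens.

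Phosphoglycerate kinase transfers a phosphate from 1,3-bisphosphoglycerate to ADP, which is the first step of glycolysis to make ATP. Signals are given as replicate 1 and then replicate 2. The Pgk1 signal was 5389 and 5598 in 129SvJae WT and 5332 and 4515 in 129SvJae KO lenses. On the C57BL/6J arrays it was 2042 and 2582 for WT and 2646 and 2307 for KO lenses. All 4 C57BL/6J arrays thus lay below all 4 129SvJae arrays, and the highest of the former, 2646, was well under the lowest of the latter, 4515. Group means were 5494 ± 148 (SD, n = 2) in 129SvJae WT, 4924 ± 577 (SD, n = 2) in 129SvJae KO, 2312 ± 382 (SD, n = 2) in C57BL/6J WT and 2477 ± 240 (SD, n = 2) in C57BL/6J KO. Averaged over genotypes, Pgk1 was 2.18-fold lower in C57BL/6J (95% confidence interval 1.76 to 2.70; log2 ratio -1.12 ± 0.14 SE; limma adjusted p = 0.00258). It was lower in WT lenses taken alone (log2 ratio -1.26 ± 0.20 SE, adjusted p = 0.0397). That call depended on nearly all arrays, as it held without C57BL/6J WT replicate 2 (adjusted p = 0.0452) and was lost without any one of the other 7 (0.0625 to 0.317). The averaged call of Pgk1 held whichever array was left out (0.00499 to 0.0282). In KO lenses alone the log2 ratio was -0.99 ± 0.20 SE, which did not pass (adjusted p = 0.180) but did with only the groups compared (0.0347). Once scan session entered the fit, Pgk1 had an adjusted p of 0.0629 in WT and 0.0821 in KO lenses. Session 3 held 129SvJae WT replicate 2 alone, so in that fit this array no longer contributed to the WT ratio. Without scan session in the fit, the interaction of strain and genotype was 0.27 ± 0.28 SE (95% confidence interval -0.34 to 0.88). The strain ratios in WT and KO lenses were thus not shown to differ.

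Phosphoglycerate mutase moves the phosphate of 3-phosphoglycerate to the second carbon, and its subunits come from Pgam1, the brain or ubiquitous type, and Pgam2, the muscle type. The Pgam2 signal was 9719 and 11626 in 129SvJae WT and 11919 and 11946 in 129SvJae KO lenses. In C57BL/6J lenses it was 6235 and 6548 for WT and 6138 and 6970 for KO. Again no array of one strain reached into the range of the other, and the gap ran from 6970 to 9719. Group means were 10673 ± 1348 (SD, n = 2), 11933 ± 18.6 (SD, n = 2), 6391 ± 221 (SD, n = 2) and 6554 ± 589 (SD, n = 2), in the order of the groups above. Averaged over genotypes, Pgam2 was 1.74-fold lower in C57BL/6J (95% confidence interval 1.43 to 2.12; log2 ratio -0.80 ± 0.13 SE; adjusted p = 0.0129). Within one genotype the log2 ratio was -0.73 ± 0.18 SE in WT lenses (adjusted p = 0.349) and -0.87 ± 0.18 SE in KO lenses (adjusted p = 0.197), and neither passed. In KO lenses Pgam2 did pass once scan session entered the fit (adjusted p = 0.0275), and also with only the groups compared (0.0337). The interaction was -0.13 ± 0.26 SE (95% confidence interval -0.69 to 0.43). The averaged call of Pgam2 rested on the full set of arrays. It held without 129SvJae WT replicate 1 (adjusted p = 0.00934) or replicate 2 (0.0258) but was lost on leaving out 129SvJae KO replicate 1 (0.0794) or 2 (0.104), C57BL/6J WT replicate 1 (0.0652) or 2 (0.0554), or C57BL/6J KO replicate 1 (0.155) or 2 (0.0855).

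**Figure D1:**
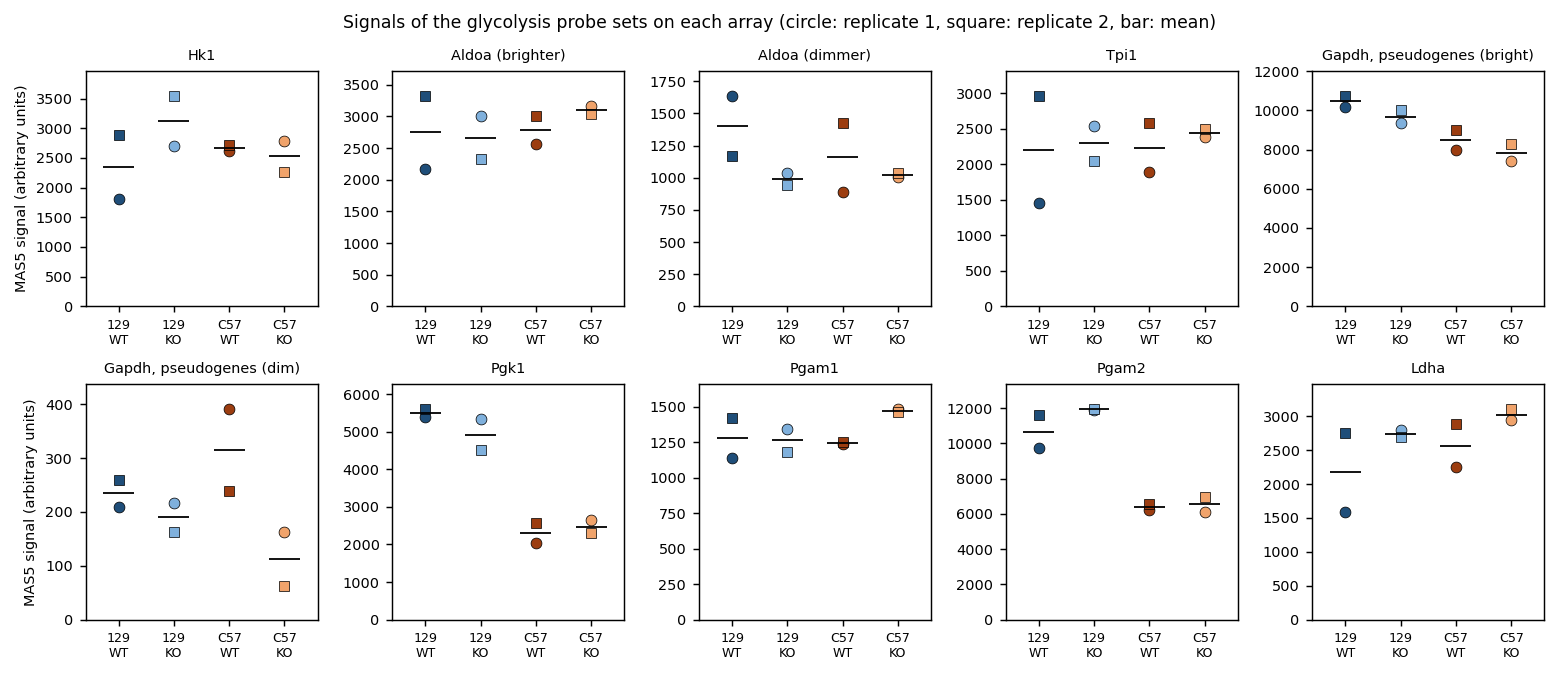
Signal of each of the 10 tested glycolysis probe sets (y axis, MAS5 signal in arbitrary units from 0) on each array, by group (x axis; 129 is 129SvJae and C57 is C57BL/6J). Circles are replicate 1, squares replicate 2 and bars the mean of the 2 arrays. In the Pgk1 and Pgam2 panels the 4 C57BL/6J points lie below the 4 129SvJae points, while in the Hk1, Aldoa, Tpi1, Pgam1 and Ldha panels the strains overlap.

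The other phosphoglycerate mutase gene did not share this pattern. The Pgam1 signal was 1135 and 1420 for WT and 1344 and 1180 for KO lenses of 129SvJae, against 1239 and 1254 for WT and 1482 and 1462 for KO lenses of C57BL/6J. The strains overlapped, and the C57BL/6J KO arrays were the highest. The averaged strain log2 ratio of Pgam1 was 0.10 ± 0.15 SE (95% confidence interval -0.23 to 0.43, adjusted p = 0.958), and 0.02 without 129SvJae WT replicate 1. The difference between the 2 isozymes in their strain ratio was not tested. Skeletal muscle was checked beside Pgam2 because this isozyme is known from muscle. The summed signal of 11 muscle marker probe sets was 575 to 890 in 129SvJae and 680 to 867 in C57BL/6J lenses. Of the 11, 4 exceeded 50 on all arrays, and none of the 7 tested was called in any comparison. Nor was any tested probe set of red blood cells (1 of 2 tested), retina (3 of 4), pigment cells (5 of 7), vessels (3 of 3) or leukocytes (2 of 6). Many of these were dim, so the absence of a call does not show equal amounts of these cells. The 3 tested retina probe sets all had negative strain ratios, the sign of Pgk1 and Pgam2, with a median of -0.77. The 3 vessel probe sets were all positive (median 0.46). For lens fiber the strain ratio was positive for 7 probe sets and negative for 1 (median 0.11). For lens epithelium it was positive for 2 and negative for 2 (median -0.03). No fiber or epithelium probe set was called for strain. The summed signal of the 4 retina probe sets was 88.2 to 796 in 129SvJae and 103 to 280 in C57BL/6J lenses, and none of the 4 exceeded 50 on all arrays. The log2 ratio of Sag, the rod arrestin, was -1.87 ± 0.85 SE (unadjusted p = 0.0461, adjusted p = 0.701), and -0.99 without 129SvJae WT replicate 1, where its signal was 475. The Pgk1 and Pgam2 ratios without that array were -1.14 and -0.87.

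The reading of Gapdh, the dehydrogenase that makes 1,3-bisphosphoglycerate, depended on the probe set. The bright probe set, which is also annotated to the pseudogenes Gapdh-ps15 and Gm12070, gave 10176 and 10742 in 129SvJae WT and 9336 and 9999 in 129SvJae KO lenses. On the C57BL/6J arrays it gave 7988 and 8983 for WT and 7426 and 8265 for KO lenses. The strains did not overlap, but the averaged log2 ratio of -0.30 ± 0.13 SE (95% confidence interval -0.58 to -0.03) did not pass over all probe sets (adjusted p = 0.642, unadjusted p = 0.0330). The ratio of mean signals, 129SvJae over C57BL/6J, was 1.23 for this probe set. For the 3 Gapdh controls on the transcript strand it was 0.999 at the 3′ end, 1.09 in the middle and 0.993 at the 5′ end, and the strains overlapped on all 3. Signals from Gapdh and from near-identical pseudogene transcripts cannot be told apart on the bright probe set.

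The second Gapdh probe set, shared with Gapdh-ps15, was dim and variable. Its signals were 210 and 260 for WT and 217 and 163 for KO lenses of 129SvJae, against 391 and 238 for WT and 162 and 61.7 for KO lenses of C57BL/6J. The averaged strain log2 ratio was -0.26 ± 0.36 SE (adjusted p = 0.952), with opposite signs in WT and KO lenses. The 3 Gapdh controls for the opposite strand, which should not pair with labelled Gapdh, gave 23.3 to 388. On the 3′ control of that strand the 129SvJae arrays (178 to 299) did not overlap with the C57BL/6J arrays (41.9 to 143), and as a control it was not tested.

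Hexokinase traps glucose in the cell by phosphorylating it, and Hk1 is the form bound to mitochondria in many tissues. The Hk1 signal was 1815 and 2886 for WT and 2701 and 3544 for KO lenses of 129SvJae, against 2619 and 2719 for WT and 2789 and 2264 for KO lenses of C57BL/6J. The lowest and the highest of the 8 arrays were both 129SvJae, and the averaged strain log2 ratio was -0.04 ± 0.17 SE (95% confidence interval -0.41 to 0.34, adjusted p = 0.980). Without 129SvJae WT replicate 1 it was -0.21. The interaction for Hk1 was -0.52 ± 0.35 SE (95% confidence interval -1.27 to 0.23) and did not pass, and it was -0.19 ± 0.31 SE without the same array.

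Aldolase splits fructose 1,6-bisphosphate into a pair of 3-carbon sugars, and Aldoa has 2 probe sets. On the brighter the signals were 2172 and 3325 for WT and 3006 and 2329 for KO lenses of 129SvJae, against 2561 and 3003 for WT and 3163 and 3043 for KO lenses of C57BL/6J. The strains overlapped, with a log2 ratio of 0.14 ± 0.17 SE (95% confidence interval -0.22 to 0.50, adjusted p = 0.950), which was -0.0160 without 129SvJae WT replicate 1. On the dimmer the group means were 1402 ± 331 (SD, n = 2), 992 ± 66.6 (SD, n = 2), 1159 ± 379 (SD, n = 2) and 1023 ± 22.8 (SD, n = 2), by the order of groups used for Pgk1. Its log2 ratio was -0.12 ± 0.19 SE (95% confidence interval -0.53 to 0.29, adjusted p = 0.957), and -0.00253 without that array. The 2 Aldoa probe sets had opposite signs with all arrays, and neither difference passed. The 129SvJae WT replicate 1 array was the lowest of the 8 on the brighter probe set and the highest on the dimmer one.

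Triosephosphate isomerase, which interconverts the products of aldolase, gave Tpi1 signals of 1450 and 2966 for WT and 2546 and 2050 for KO lenses of 129SvJae, against 1890 and 2577 for WT and 2384 and 2493 for KO lenses of C57BL/6J. Both extremes came from the 129SvJae WT pair. The averaged strain log2 ratio was 0.09 ± 0.21 SE (95% confidence interval -0.36 to 0.54, adjusted p = 0.971), and without 129SvJae WT replicate 1 it was -0.17.

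Lactate dehydrogenase A converts pyruvate to lactate and regenerates NAD+. The Ldha signal was 1587 and 2758 for WT and 2800 and 2692 for KO lenses of 129SvJae, against 2249 and 2886 for WT and 2939 and 3105 for KO lenses of C57BL/6J. The first of these arrays was below the other 7, and the C57BL/6J KO pair was the highest. The averaged strain log2 ratio was 0.21 ± 0.18 SE (95% confidence interval -0.17 to 0.60, adjusted p = 0.916), and 0.01 without 129SvJae WT replicate 1.

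Across the members, 2 of 10 probe sets were called for the averaged strain difference against 0.367% of the 10078 probe sets tested. Both were lower in C57BL/6J, as were 0.109% of all. The members were chosen with earlier results of these data known, so these shares are no test of glycolysis genes as a set. In WT lenses alone 1 of 10 was called (Pgk1), against 0.0695% of all. In KO lenses alone limma called 0 of 10, against 0.0893% of all. An unadjusted limma p under 0.05 was found there for 2 of 10, against 3.73% of all. The methods' t-test also called 0 in KO lenses after Benjamini-Hochberg adjustment. The median averaged strain log2 ratio was -0.08 over the 10 members, 4 positive and 6 negative, and 0.01 over all probe sets tested. The strains did not overlap for 3 of the 10 members (Pgk1, Pgam2 and the bright Gapdh probe set), as for 5.57% of all probe sets tested. All 3 were lower in C57BL/6J, an order shown by 2.62% of all. The intervals of the 8 members that were not called ran from -1.04 to 0.60 on the log2 scale. The lower end came from the dim Gapdh probe set, whose SE was 0.36.

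**Figure D2:**
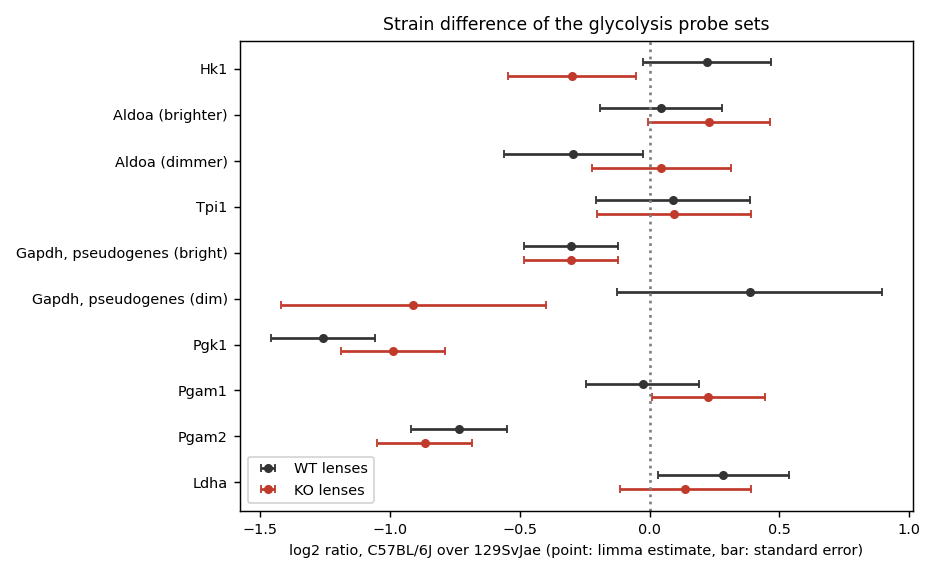
Strain difference of each glycolysis probe set (x axis, log2 ratio of C57BL/6J over 129SvJae) in WT lenses (black) and KO lenses (red); points are limma estimates and bars 1 standard error. Pgk1 (-1.26 and -0.99) and Pgam2 (-0.73 and -0.87) lie left of 0 in both genotypes, and the dim Gapdh probe set changes side between them.

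The methods of the study asked for a fold change of at least 1.8, a t statistic with p of at most 0.01 and a signal above 50. With the methods' t-test on log2 signals, 0 of 10 members met these criteria in WT lenses, where 0.486% of all probe sets did, and 0 of 10 in KO lenses, where 0.417% did. Pgk1 passed the fold in both genotypes, with ratios of mean signals of 2.38 and 1.99, and Pgam2 in KO lenses, with 1.82. Neither reached the p of 0.01 with 2 arrays against 2.

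Replicate numbers followed the scan session in part, so that each number gives a pair of arrays for the strain comparison. The C57BL/6J over 129SvJae log2 ratio of Pgk1 was -1.40 for WT replicate 1 and -1.12 for WT replicate 2, and -1.01 and -0.97 for the KO replicates. For Pgam2 the 4 ratios were -0.64, -0.83, -0.96 and -0.78 in the same order. Both genes were lower in C57BL/6J in 4 of 4 pairs, which follows from strain ranges that do not overlap and is no further evidence. Of these pairs, 3 were scanned within a single session. The second WT pair spanned 2 sessions. Hk1 went both ways, from -0.65 for KO replicate 2 to 0.53 for WT replicate 1.

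**Figure D3:**
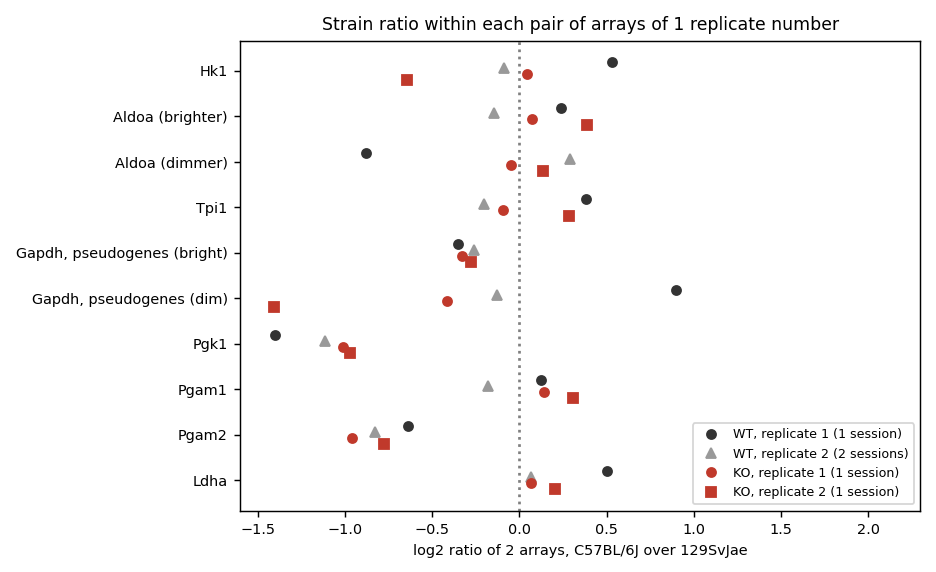
Strain ratio of each glycolysis probe set within the 4 pairs of arrays that share a genotype and a replicate number (x axis, log2 ratio of C57BL/6J over 129SvJae; dotted line at 0). Black circles and grey triangles are WT replicates 1 and 2, red circles and squares KO replicates 1 and 2. All 4 points lie left of 0 for Pgk1, Pgam2 and the bright Gapdh probe set, as they must where the strains do not overlap.

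Loss of α3Cx46 gave no call among the members. Averaged over strains, limma called 0 of 10 members, against 0.0198% of all probe sets, and the methods' t-test called 0. An unadjusted limma p under 0.05 was found for 1 of 10, against 3.05% of all. The KO over WT log2 ratio was -0.03 for Pgk1 (SE 0.14, 95% confidence interval -0.34 to 0.28) and 0.10 for Pgam2 (SE 0.13, 95% confidence interval -0.18 to 0.38). The most positive value was that of Ldha, 0.32 ± 0.18 SE (95% confidence interval -0.07 to 0.70), which was 0.12 ± 0.15 SE without 129SvJae WT replicate 1. Without that array the Hk1 effect went from 0.17 to 0.00671, and those of Tpi1 (0.14) and the brighter Aldoa probe set (0.07) went to -0.12 and -0.0838. The most negative was that of the dim Gapdh probe set, -0.96 ± 0.36 SE (unadjusted p = 0.0193, adjusted p = 0.998). The median was 0.09 over the 10 members, 6 positive and 4 negative, and -0.02 over all probe sets tested. WT and KO arrays overlapped for all 10 members and did not overlap for 2.19% of all probe sets. On the Actb control ratio for RNA ends, given below, every WT array lay above every KO array. The part of this in the KO ratios was not tested. In 129SvJae lenses alone limma called 0 of 10, against 0% of all. It found 0 of 10 with an unadjusted p under 0.05, against 3.12% of all. The KO effects in these lenses ran from -0.48 (dimmer Aldoa probe set) to 0.43 (Hk1). Both of these values shrank without 129SvJae WT replicate 1, with Hk1 at 0.10, the dimmer Aldoa probe set at -0.24 and Ldha at -0.00655 in place of 0.39. Others moved away from 0 without it. Tpi1 went from 0.14 to -0.38, the brighter Aldoa probe set from -0.02 to -0.33 and the dim Gapdh probe set from -0.31 to -0.47. In C57BL/6J lenses alone 0 of 10 were called, against 0.00992% of all, and 1 had an unadjusted p under 0.05, against 2.31% of all. For the interaction limma called 0 of 10, against 0% of all, with 0 at an unadjusted p under 0.05, against 2.11% of all.

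Ends of control transcripts were read on each array, because a transcript broken or copied short loses its 5′ end first. The 3′ to 5′ ratio of the Actb controls was 3.10 and 1.78 for WT and 1.33 and 1.42 for KO lenses of 129SvJae, against 2.02 and 1.45 for WT and 1.37 and 1.21 for KO lenses of C57BL/6J. Every WT array thus had a higher Actb ratio than every KO array, 1.45 or more against 1.42 or less. The Gapdh ratio ran from 0.903 to 1.28, and the Actb and Gapdh ratios were both highest on 129SvJae WT replicate 1. That array had the lowest signal for Hk1, the brighter Aldoa probe set, Tpi1, Pgam1 and Ldha. The part of RNA ends in these signals, and in the KO over WT ratios, was not tested. Without that array the averaged strain log2 ratio was -1.14 for Pgk1 (adjusted p = 0.00499) and -0.87 for Pgam2 (adjusted p = 0.00934), against -1.12 and -0.80 with it. A communication error of the fluidics station was logged for C57BL/6J WT replicate 1, and without this array the ratios were -1.04 (adjusted p = 0.0144) and -0.78 (adjusted p = 0.0652).

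**Figure D4:**
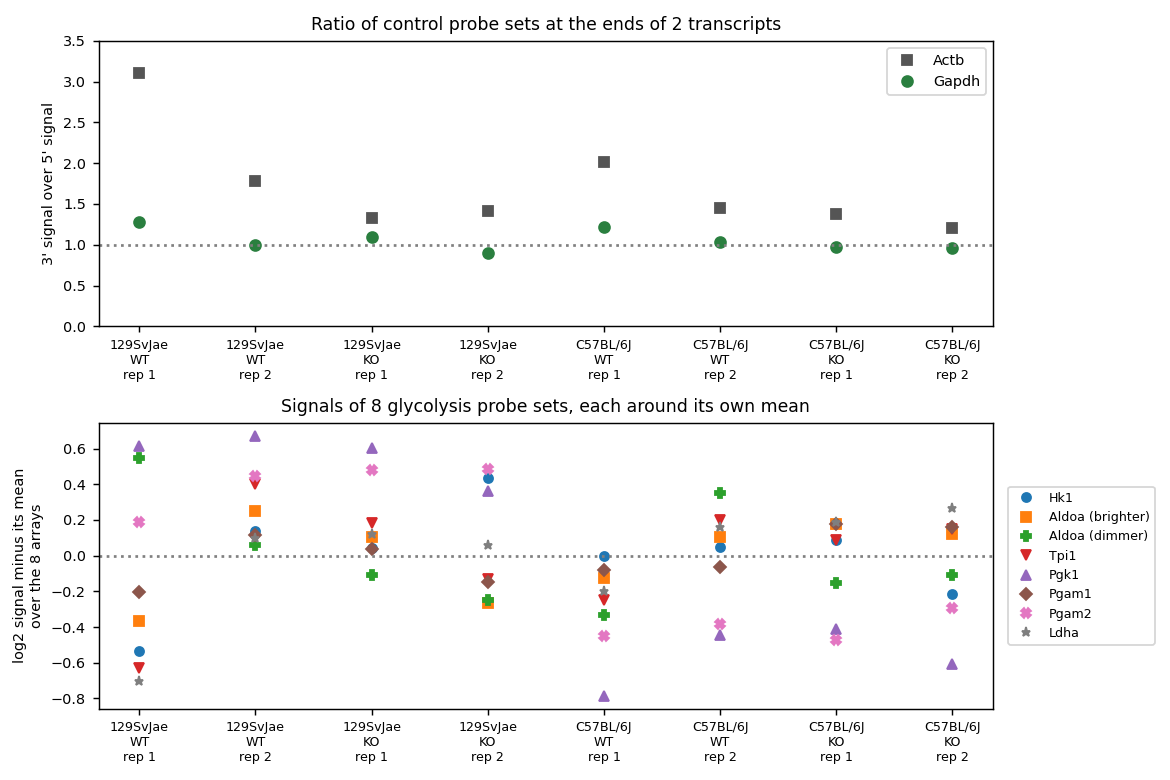
Upper panel, ratio of the 3′ to the 5′ control signal of Actb (squares) and Gapdh (circles) on each array; lower panel, log2 signal of the 8 glycolysis probe sets annotated to 1 gene minus the mean of that probe set over the 8 arrays. On 129SvJae WT replicate 1, where the Actb ratio is 3.10, Hk1, Tpi1, Ldha, Pgam1 and 1 of the Aldoa probe sets lie at their lowest point.

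Among the other genes of glucose metabolism no strain difference was called. The 8 lists hold 66 genes, of which 51 have a probe set, and 49 probe sets were tested. The averaged strain log2 ratio was positive for 27 and negative for 22, with a median of 0.01, which was also the median over all probe sets tested. limma called 0 of the 49 in any comparison, where 0.367% of all probe sets were called for the averaged strain difference. For that difference 2 of the 49, Hk2 and Eno3, had an unadjusted p under 0.05, as had 6.97% of all probe sets, so that neither count sets these genes apart. The KO over WT ratio was positive for 29 and negative for 20, with a median of 0.05.

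Other isozymes and steps of glycolysis had 12 probe sets tested, 7 positive and 5 negative for the strain ratio. Hk2, the insulin-regulated hexokinase of muscle and fat, had 531 and 527 for WT and 359 and 435 for KO lenses of 129SvJae, against 755 and 715 for WT and 679 and 676 for KO lenses of C57BL/6J. The C57BL/6J arrays were all above the 129SvJae arrays, the opposite order to Pgk1, but the log2 ratio of 0.63 ± 0.18 SE did not pass (adjusted p = 0.301). Of all probe sets tested, 5.57% had strains that did not overlap, in either order. A second Hk2 probe set was dim, at 6.10 to 59.7. Eno3, the muscle-type enolase that acts on the product of phosphoglycerate mutase, had 2507 to 2939 on the 129SvJae arrays and 2049 to 2272 on the C57BL/6J arrays. Its log2 ratio of -0.34 ± 0.14 SE did not pass either (adjusted p = 0.602). For Bpgm, which makes 2,3-bisphosphoglycerate, the ratio was 0.40 ± 0.21 SE on the log2 scale (adjusted p = 0.786).

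Lists that feed or drain the pathway were as mixed. Both tested regulators of glycolytic flux were positive, with 0.31 ± 0.35 SE for Pfkfb3, which makes the activator of phosphofructokinase (adjusted p = 0.950). Of 4 transporter probe sets 3 were positive, and Slc2a1, the widespread glucose transporter, was at 0.01 ± 0.23 SE (adjusted p = 0.997). The pyruvate dehydrogenase complex and its kinases had 3 positive and 5 negative, with Pdk3, a kinase that inhibits the complex, at -0.53 ± 0.25 SE (adjusted p = 0.722). The pentose phosphate pathway, which makes NADPH, had 5 positive and 2 negative, with transketolase (Tkt) at 0.30 ± 0.19 SE (adjusted p = 0.866). Glycerol phosphate and gluconeogenesis had 3 positive and 5 negative, with a median of -0.47. The hypoxia factors had 4 of each, and Hif1a, the regulated subunit of the factor that acts on many glycolysis genes, was at 0.04 ± 0.19 SE and 0.09 ± 0.18 SE on its 2 probe sets. The polyol pathway had no probe set that passed the level filter.

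**Figure D5:**
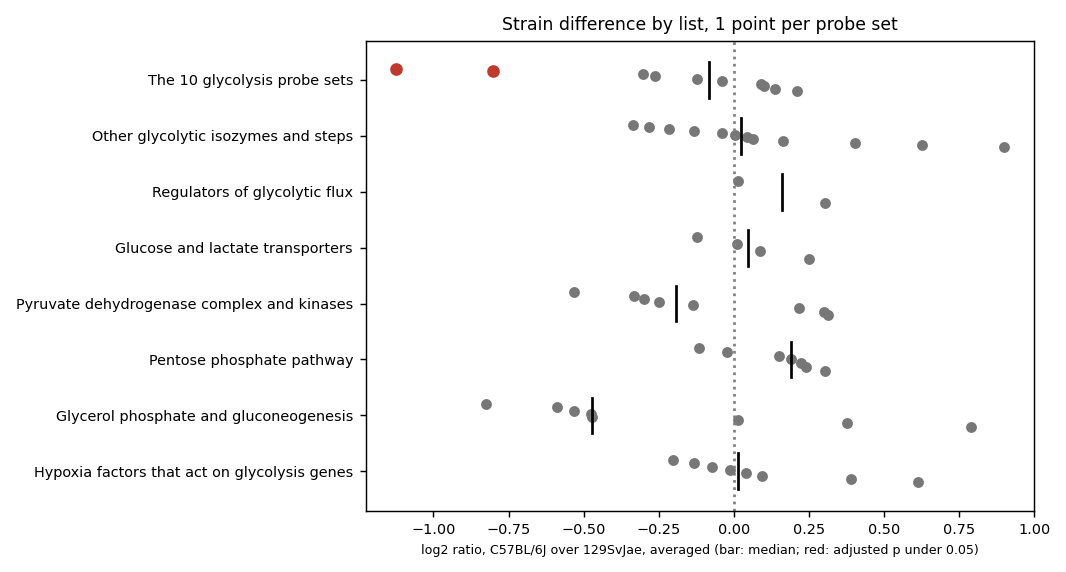
Averaged strain difference (x axis, log2 ratio of C57BL/6J over 129SvJae) for the 10 glycolysis probe sets and 7 lists of related genes, 1 point per probe set, with the median of each list as a bar and probe sets called by limma in red. The only red points are Pgk1 (-1.12) and Pgam2 (-0.80).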

How the data were processed

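RNA of pooled lenses was hybridised to MG-U74Av2 arrays, 2 for each of 4 groups. Per the labels and methods, the authors made the deposited signal intensities, in arbitrary units, with MAS5, and scaled them to a mean of 250. Each array was rescaled here to a mean of 250 after trimming 2%, and log2 signals were fitted with limma 3.58.1 in R 4.3.3 as 4 group means with a trend in the variance prior, which had 9.17 degrees of freedom beside 4 residual ones. After 66 controls were set aside, 10078 of the 12488 probe sets averaged over 50 in 1 group or more and entered the test. The single signal at or under 0 belonged to none of the members. P-values were adjusted by Benjamini-Hochberg over these, and an adjusted p under 0.05 was called. The fit was run on simulated data whose noise was independent between arrays, so it did not cover the shared deviations of same-numbered arrays. The precision was limited by the number of arrays.

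Scan sessions came from the deposited run records, whose other entries were not used as measurements. Session 1 held replicate 1 of all 4 groups. Session 3 held 129SvJae WT replicate 2 alone, so a session block takes that array out of the comparisons of its group. Same-numbered arrays deviated together (correlations 0.129 to 0.206 over 6 pairs of groups), so the numbers paired the arrays, which followed the session. The members and gene lists were chosen with earlier results of these data known. Every member probe set of 1 gene was named. Of each list, genes called in any comparison or otherwise up to 3 with the lowest adjusted p for strain could be named. Promoters came from RefSeq. The alternatives were other scalings, floors, filters, variance priors, blocks and tests, and leaving out each array.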

Additional observations from a re-analysis of the deposited data

How the results depend on the processing

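The replicate block changed no call of the members: 2 were called for the averaged strain difference (Pgk1, adjusted p = 0.00170; Pgam2, 0.00305), 1 in WT lenses and 0 in KO lenses, although over all probe sets it raised the averaged strain calls from 37 to 58. For the averaged strain difference the count of 2 fell to 1 with arrays centred on the median (Pgam2 lost, adjusted p = 0.302), to 0 without a variance trend (Pgk1 0.408, Pgam2 0.573; 1 probe set was then called in all) and to 1 with the methods' t-test on linear signals (Pgam2 0.0614), and was 1 to 2 on leaving out single arrays. In WT lenses the call of Pgk1 was lost, leaving 0, with quantile normalization, median centring, no level filter, no variance trend, the scan session as a block, only the groups compared and both of the methods' t-tests. It was 0 to 1 on leaving out an array, and 1 only without C57BL/6J WT replicate 2. In KO lenses the count of 0 rose to 1 with the session block (Pgam2, 0.0275) and to 2 with only the groups compared (Pgk1 0.0347, Pgam2 0.0337). The causes were not tested. Calls for the KO effects and the interaction stayed at 0 in every alternative run. Over all probe sets the averaged strain calls were 86 with the session block, 19 with median centring, and 21 and 20 with the methods' t-tests.

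Signs turned only for log2 ratios that were not called in the comparison concerned. For the strain ratio, Hk1 was 0.00326 with quantile normalization and 0.12 with the session block, and -0.21 to 0.13 on leaving out an array. The dim Gapdh probe set was 0.0248 with the session block and 0.00545 with the t-test on linear signals, and -0.61 to 0.0868 on leaving out an array. Over left-out arrays the brighter Aldoa probe set ran from -0.0160 to 0.29, the dimmer from -0.29 to 0.0458 and Tpi1 from -0.17 to 0.35. For the KO effect Pgk1 was 0.0709 with median centring and -0.11 to 0.0563 over left-out arrays, where the brighter Aldoa probe set ran from -0.0838 to 0.22 and Tpi1 from -0.12 to 0.40. Median centring moved the median KO log2 ratio of all probe sets in 129SvJae lenses from -0.05 to 0.09. The dim Gapdh probe set had the largest SE among the members, 0.36 for the averaged strain difference.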
